A study of Mus musculus with 8 samples.

Results

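Ttr and Kcnj13, a pair of genes that mark the epithelium of the choroid plexus, were followed over 8 brain arrays as a readout of the plexus tissue carried in each dissection. They were chosen by gene symbol, and each was represented by 1 probe set, so that 2 of the 9607 genes named by a single symbol are described, with 2 probe sets of the 22511 without controls. Both probe sets exceeded the array median on all 8 arrays and both entered the fit of 13221 probe sets. Each array carried RNA from the brain of mice heterozygous for the translocation T9H (T9H/+), so every group here, without a normal control, held this translocation and a duplication. Maternal-7 stands here for arrays with a maternal duplication (matdup) of proximal Chr 7 together with a paternal one (patdup) of proximal Chr 15, and paternal-7 for the reverse. There was 1 array for each duplication in neonatal cortex, in neonatal cerebellum, and in whole brain at 15.5 and at 13.5 days post coitum (dpc). The labels describe the neonatal cortex sample as forebrain tissue and do not say how the ventricles were dissected, how many animals gave each RNA, or whether RNA was pooled. No context held a replicate, so the p-values rest on the spread over these 8 arrays, part of which may be technical, and the small number of arrays sets the precision. An SD given for a context is taken over its maternal-7 and its paternal-7 array. It therefore holds the duplication difference and is no spread of replicates.

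The choroid plexus is a folded sheet of epithelium over a vascular core that hangs into the ventricles and makes cerebrospinal fluid. It forms in the ventricles of the forebrain and in the hindbrain ventricle that borders the cerebellum. Ttr encodes transthyretin, a carrier of thyroxine and, with retinol-binding protein, of retinol, and plexus epithelium is its main site of expression in the brain, with liver and visceral yolk sac outside it. Kcnj13 encodes Kir7.1, an inwardly rectifying potassium channel that lies in the apical membrane of plexus epithelium and of the retinal pigment epithelium.

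The labels and the arrays were checked first. The trimmed mean signal was 499.9 units on each array and the array medians lay between 229.8 and 286 units. The brightest probe set of Snhg14, a paternally expressed RNA of chromosome 7, read 667 to 2372 units in paternal-7 arrays and 0.262 to 33.9 in maternal-7 arrays, with no overlap. Summed signals of 9 cortex markers were 28600 to 29500 in cortex and 11600 to 15100 in cerebellum. Of these 9, 3 were called higher in cortex, where 0.325% of all probe sets were called in either direction. Of 5 tested cerebellum markers 1 was called, against the same 0.325%. This was Tfap2b, at 339 and 363 units in cortex and 7313 and 6639 in cerebellum. Zic1, the brightest, was not called (4965 ± 1865 and 4616 ± 253).

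Kcnj13 lies on chromosome 1 inside the span of Gigyf2, on the other strand, in RefSeq's annotation of GRCm38.p6. For Ttr no promoter was listed, so only the sequence just before the start of Kcnj13 is shown. It is the 250 bases upstream of the annotated start, 5′ to 3′ in the direction of the gene, at chr1:87394730-87394979 on the minus strand of GRCm38.p6 (RefSeq).

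Kcnj13: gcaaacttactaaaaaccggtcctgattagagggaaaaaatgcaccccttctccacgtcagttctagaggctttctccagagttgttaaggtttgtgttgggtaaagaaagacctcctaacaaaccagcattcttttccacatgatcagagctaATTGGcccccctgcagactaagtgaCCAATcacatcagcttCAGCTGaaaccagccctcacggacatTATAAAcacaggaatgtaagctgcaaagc

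The capitals mark matches to the motifs searched on both strands. A TATA box (TATAAA) began 29 bases before the start, an E-box (CAGCTG) 55 bases before it, and a CCAAT box (CCAAT) 71 bases before it, with a reversed one (ATTGG) at 96 bases. Of 32851 such windows of 250 bases, 12.4% held the TATA box, 13% the E-box and 33.8% the CCAAT box on either strand. The letters TAATCC, a site bound by Otx factors, which are regulators of plexus epithelium, were not in this window and were in 6.25% of all windows. The motifs were chosen after the sequence had been seen, none overlapped another, and a match is a description of letters only.

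Ttr was the brightest of all probe sets on each of the 4 neonatal arrays. In cortex it read 39996.5 units with the maternal-7 and 33732 with the paternal-7 duplication, and in cerebellum 38239 and 42874. At 15.5 dpc it read 53757 and 47096 units, at rank 3 and rank 4 from the top of the array, and at 13.5 dpc 34489.6 and 22316, at rank 9 and rank 13. Both 15.5 dpc arrays thus lay above the other 6, as in 5.26% of the tested probe sets, and the paternal-7 array of 13.5 dpc stood lowest. The context means were 36864 ± 4430 for cortex, 40556 ± 3278 for cerebellum, 50427 ± 4710.1 for 15.5 dpc and 28403 ± 8608 for 13.5 dpc (SD, n = 2 arrays each, of opposite duplications). The highest signals of any probe set on the embryonic arrays were 61553 to 68488 units, so Ttr lay below the top of that range; whether its spots were near saturation was not tested. The Ttr probe set carries the suffix that Affymetrix gives to sets matching more than one transcript.

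Kcnj13 was a gene of middle to high signal, between the percentiles 77.4 and 93.3 of the arrays. It read 1166 and 808 units in cortex, 1414 and 1105 in cerebellum, 1989 and 1370.1 at 15.5 dpc, and 835 and 729 at 13.5 dpc, in each case maternal-7 first. The means were 987 ± 253 for cortex, 1260 ± 219 for cerebellum, 1679 ± 437 for 15.5 dpc and 782 ± 75.1 for 13.5 dpc (SD, n = 2 each). The highest array was that of maternal-7 brain at 15.5 dpc and the lowest that of paternal-7 brain at 13.5 dpc, 2.73-fold apart, and for Ttr the same arrays stood at the ends, 2.41-fold apart. In both duplications the contexts followed 1 order for Kcnj13, with 15.5 dpc highest, then cerebellum, cortex and 13.5 dpc. That order in both duplications was seen in 0.234% of the tested probe sets, and any shared order in 18.9%. Ttr had the same order in paternal-7 arrays, while in maternal-7 arrays cortex and cerebellum changed places.

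**Figure D1:**
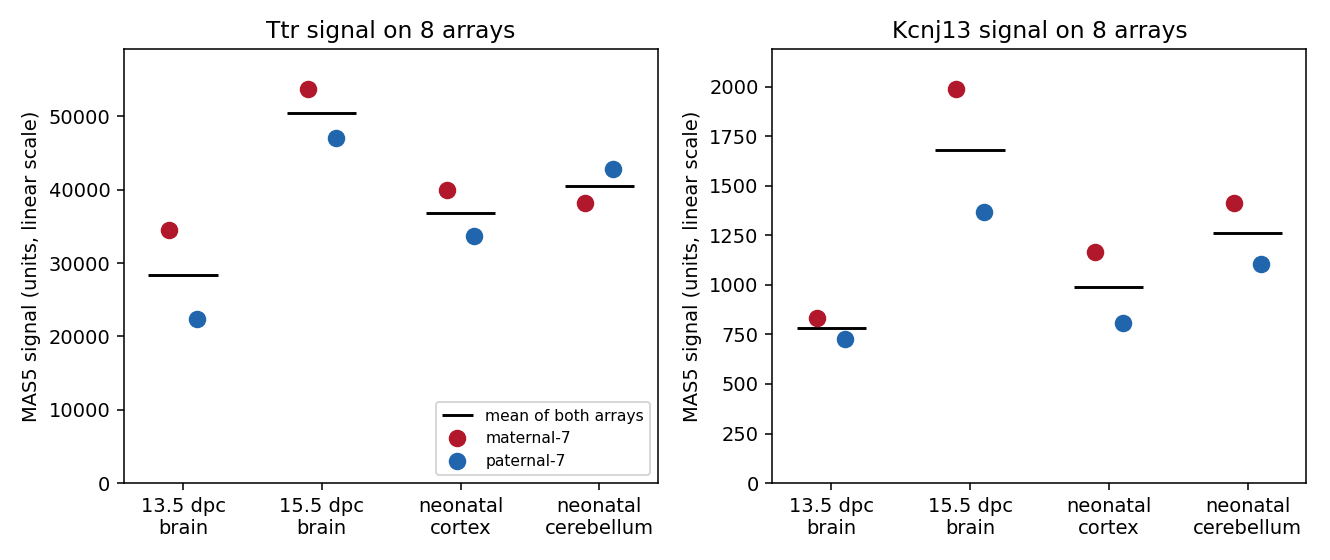
Signal of Ttr (left) and Kcnj13 (right) in MAS5 units on a linear scale, 1 point per array, by context and duplication, with the mean of both arrays of a context as a black line. The context means of both genes are highest at 15.5 dpc and lowest at 13.5 dpc, and Kcnj13 is lower in the paternal-7 array of every context.

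The first question was whether the members differed between the contexts. Kcnj13 was higher at 15.5 than at 13.5 dpc by 1.03 ± 0.19 log2 units (SE, limma adjusted p = 0.0314), a 2.04-fold difference, and 6.59% of all probe sets were called in this comparison. It was also higher in cerebellum than at 13.5 dpc by 0.64 ± 0.19 (adjusted p = 0.0483), where 24.8% were called. In both comparisons the arrays of the 2 contexts did not overlap, as in 22.5% and 24.8% of the probe sets in the same direction. Both calls were lost in the fit without any single 1 of the 8 arrays, with differences of 0.89 to 1.16 and of 0.51 to 0.78. Leaving out an array outside the 2 compared contexts cannot change the difference, only its error and degrees of freedom. For 15.5 minus 13.5 dpc the calls over all probe sets fell in each of these fits too. Testing every probe set, dim ones included, lost both calls of Kcnj13 as well (adjusted p = 0.0669 and 0.0856). A model without a term for the duplication also lost them (adjusted p = 0.0652 and 0.124).

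Neighbours in the order of Kcnj13 levels did not pass the test. Cerebellum minus 15.5 dpc was -0.39 ± 0.19 (adjusted p = 0.248), where 5.46% of probe sets were called. Cortex minus cerebellum was -0.35 ± 0.19 (0.771), with 0.325% called, and cortex minus 13.5 dpc 0.30 ± 0.19 (0.276), with 25.7% called. Cortex minus 15.5 dpc, which are not neighbours, stood at -0.73 ± 0.19 (adjusted p = 0.0775), where 4.22% were called. That last value was called when tested probe sets had to exceed the median on all 8 arrays, the strict filter (adjusted p = 0.0197), and with an intensity trend in the variance (0.0315).

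Ttr gave no call in any of the comparisons with the settings used here. Its largest difference was again 15.5 minus 13.5 dpc, 0.86 ± 0.23 (limma adjusted p = 0.0796, 95% interval 0.31 to 1.41), where 6.59% of probe sets were called. The arrays did not overlap, as in 22.5% of the probe sets in the same direction. This difference was called with the strict filter (adjusted p = 0.0157) and with the intensity trend (0.0139). It was smallest, at 0.59, without the paternal-7 array of 13.5 dpc. Cerebellum minus 13.5 dpc was 0.54 ± 0.23 (adjusted p = 0.131), cortex minus 15.5 dpc -0.45 ± 0.23 (0.261), cortex minus 13.5 dpc 0.40 ± 0.23 (0.233) and cerebellum minus 15.5 dpc -0.31 ± 0.23 (0.426). With these settings no neighbours in the order of Ttr levels, 15.5 dpc, cerebellum, cortex and 13.5 dpc, passed the test. This order depended on the scaling. Quantile normalization turned cortex and cerebellum minus 15.5 dpc to 0.32 each (adjusted p = 0.352 and 0.357) and gave 1.0 for both minus 13.5 dpc, which were then called (0.0116 and 0.0117). The intensity trend also called cerebellum minus 13.5 dpc (adjusted p = 0.041). In bulk tissue, fewer plexus cells and less RNA per cell cannot be told apart.

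Over both neonatal against both embryonic contexts neither gene differed by more than its error. The difference was 0.05 ± 0.16 for Ttr (limma adjusted p = 0.844; 95% interval -0.34 to 0.43) and -0.04 ± 0.13 for Kcnj13 (0.810; -0.36 to 0.27), and for both genes the neonatal means lay between those of 15.5 and 13.5 dpc. This was a comparison in which 30.7% of probe sets were called, 1887 higher and 2168 lower in neonatal tissue, or 2398 and 1058 with arrays centred on the median. The median difference of all probe sets was -0.16, and 0.02 after centring. Centring turned Kcnj13 to 0.13 (adjusted p = 0.518). Quantile normalization, which gives the top probe set of every array 1 common value and so moves Ttr by construction, gave 0.66 for Ttr (adjusted p = 0.0134).

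Cortex minus cerebellum was -0.14 ± 0.23 for Ttr (limma adjusted p = 0.973; 95% interval -0.69 to 0.41) and -0.35 ± 0.19 for Kcnj13 (0.771; -0.79 to 0.10), in a comparison that called 0.325% of probe sets. Without the paternal-7 cerebellum array the Ttr value turned to 0.12. Kcnj13 was lower in cortex than in cerebellum in both duplications, and Ttr in 1 of them.

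**Figure D2:**
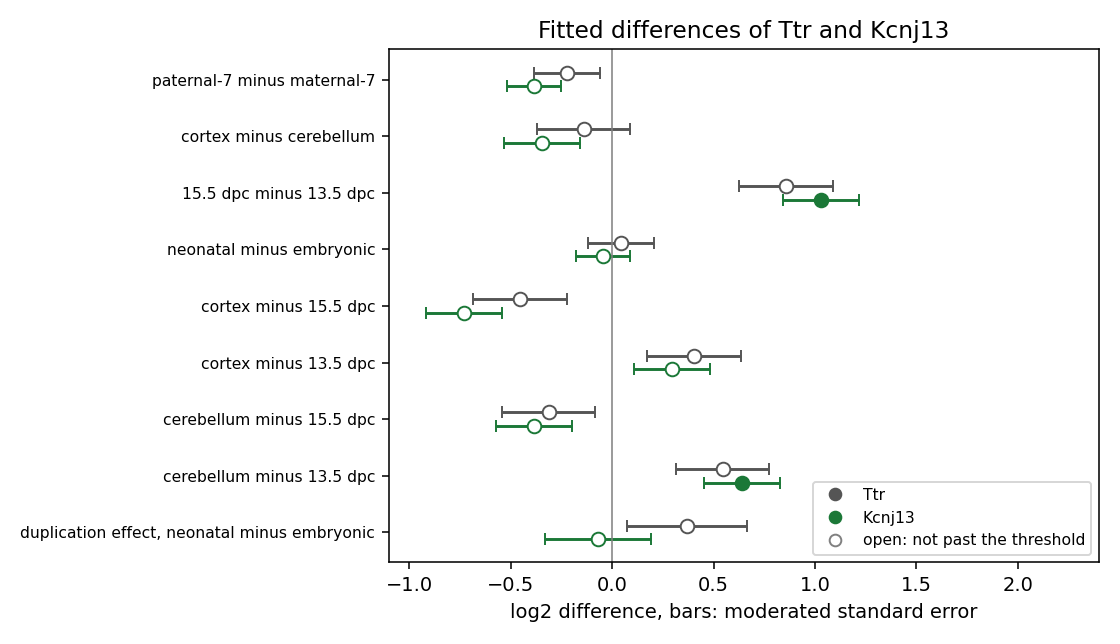
Fitted log2 differences of Ttr and Kcnj13 for each comparison, with the moderated standard error as a bar and open circles where the adjusted p missed the threshold. The filled points are Kcnj13 in 15.5 minus 13.5 dpc, 1.03, and in cerebellum minus 13.5 dpc, 0.64.

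The second question was whether the parental origin of the duplications altered the members. Neither passed the test, and 0.00756% of probe sets were called, which is 1 probe set. Kcnj13 was lower in the paternal-7 array in 4 of 4 contexts, as were 9.08% of the tested probe sets. Its log2 pair differences were -0.50 for cortex, -0.34 for cerebellum, -0.52 for 15.5 dpc and -0.18 for 13.5 dpc. Their mean was -0.39 ± 0.13 (SE, limma adjusted p = 0.546; 95% interval -0.70 to -0.07), and the unadjusted interval left out 0. Maternal-7 signals ran from 835 to 1989 and paternal-7 signals from 729 to 1370.1 units, so the groups overlapped across contexts.

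Ttr was lower in the paternal-7 array in 3 of 4 contexts, where at least 3 of 4 lower was found for 31.2% of probe sets. Its pair differences were -0.25 for cortex, 0.16 for cerebellum, -0.19 for 15.5 dpc and -0.63 for 13.5 dpc, with a mean of -0.22 ± 0.16 (limma adjusted p = 0.677; 95% interval -0.61 to 0.16). The mean was -0.09 without the 13.5 dpc pair and -0.35 without the cerebellum pair. Maternal-7 arrays read 34489.6 to 53757 units and paternal-7 arrays 22316 to 47096. The duplication effect, neonatal minus embryonic, was 0.37 ± 0.30 for Ttr (adjusted p = 0.700) and -0.07 ± 0.26 for Kcnj13 (0.944). That test called 0 probe sets with limma, with 1209 at an unadjusted p under 0.05.

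**Figure D3:**
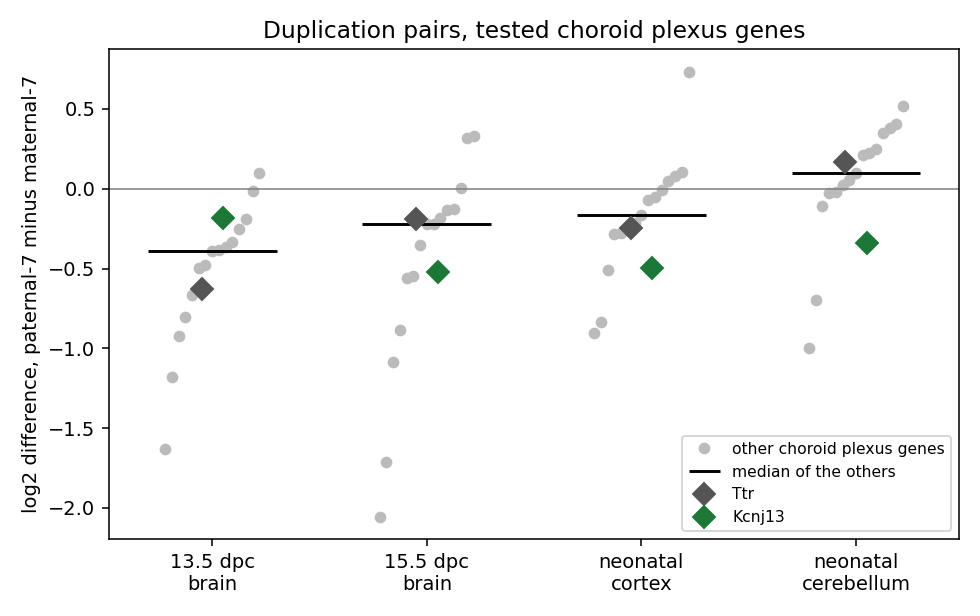
Log2 difference of the paternal-7 minus the maternal-7 array in each context for Ttr, Kcnj13 and the 15 other tested choroid plexus genes, whose median is the black line. In cerebellum Ttr (0.16) and the median of the other genes (0.10) lie above 0, and Kcnj13 (-0.34) lies below it.

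The members were then compared with each other. Over the 8 arrays, log2 signals of Ttr and Kcnj13 correlated at a Pearson r of 0.859 (Spearman rho 0.833). The 8 points share 4 contexts and the scaling of each array, and the value is a description. Without the 2 arrays farthest from the Ttr median, those of paternal-7 at 13.5 dpc and maternal-7 at 15.5 dpc, r was 0.766 over 6 arrays. Of 9771 other tested probe sets with 1 gene name, 33 (0.338%) had a higher r with Kcnj13 than Ttr did, and 80 (0.819%) a higher r with Ttr than Kcnj13 did.

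**Figure D4:**
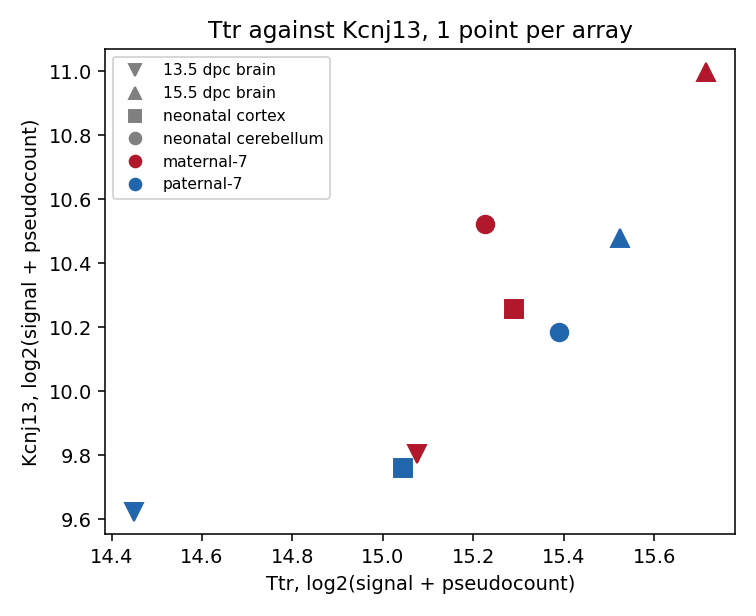
Log2 signal of Ttr against that of Kcnj13, 1 point per array, shaped by context and coloured by duplication. The 13.5 dpc paternal-7 array is lowest in both genes and the 15.5 dpc maternal-7 array is highest in both (Pearson r = 0.859, 8 arrays).

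The probe sets most like Ttr over the 8 arrays were those of Fam167a (r = 0.982), Rxfp1, the relaxin receptor (0.977), 1500009L16Rik (0.971), Mtif3, a mitochondrial translation factor (0.965), and 1700012B09Rik (0.944). Those most like Kcnj13 were Fam229b (0.963), Dph3 (0.963), Smim7 (0.960), Cfap52, a protein of motile cilia (0.943), and Azin1, an inhibitor of antizyme (0.932). The closest in both directions was 1700012B09Rik, with 0.928 for Kcnj13 and signals of 51.6 to 495 units. With 8 points, high values arise readily among so many probe sets.

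Other genes of plexus epithelium were taken from lists of 65 names covering transport and channel proteins and secreted, membrane and junction proteins. Of these, 22 had a probe set with a single name, and 17 were tested, Ttr and Kcnj13 included. Defining genes such as Aqp1, Folr1, Otx2 and Kl had no probe set with a single name here. Between 15.5 and 13.5 dpc, 3 of the 17 were called higher at the later age, against 3.52% of all probe sets. Called lower were 2, against 3.07%. Those called higher were Kcnj13, Htr2c, a serotonin receptor of plexus and neurons (1.23 ± 0.26, limma adjusted p = 0.0437), and Vat1l (1.51 ± 0.25, adjusted p = 0.0264). Those called lower were the collagens Col8a1 (-2.99 ± 0.50) and Col8a2 (-1.71 ± 0.28). Called or not, 12 of the 17 lay above 0 and 5 below 0, where 52.2% of all tested probe sets lay below 0. The median of the 17 was 0.49 against -0.02 over all tested probe sets. The number called, 5 of the 17, moved with the calls over all probe sets, which were 871 of 13221 here. It was 0 of 22 with no filter, where 207 of 22511 probe sets were called. The strict filter gave 8 of 14, where 1145 of 7994 were called, and the intensity trend 8 of 17, where 1411 of 13221 were. In every fit without 1 array it fell, as did the calls over all probe sets.

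The plexus genes did not share 1 time course. Htr2c read 416 ± 110 units at 13.5 dpc, 1037 ± 70.0 at 15.5 dpc, 1199 ± 30.2 in cortex and 2041 ± 529.9 in cerebellum (SD, n = 2 each). Slc13a4, a sulfate transporter, read 566 ± 118 at 13.5 dpc, 919 ± 88.6 at 15.5 dpc, 1342 ± 599 in cortex and 1573 ± 769 in cerebellum. Clic6, a chloride channel protein of plexus epithelium, had its highest arrays at 15.5 dpc like Ttr, at 2494 ± 435 units, with 1944 ± 245 at 13.5 dpc, 1733 ± 189 for cortex and 1560 ± 18.9 for cerebellum. Slc2a12, a glucose transporter, was the only other tested member with both 15.5 dpc arrays above the other 6. With Ttr and Clic6 that made 3 of the 17, where 5.26% of all tested probe sets had this pattern.

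Between neonatal and embryonic contexts 6 of the 17 were called higher in neonatal tissue (14.3% of all probe sets) and 2 lower (16.4%), and neither Ttr nor Kcnj13 was among them. Higher were Abcc4, an organic anion pump (1.24 ± 0.26), Atp2b3, a calcium pump (1.17 ± 0.19), Htr2c (1.17 ± 0.18), Trpm3, a cation channel (1.03 ± 0.20), Slc13a4 (0.88 ± 0.18) and Vat1l (0.78 ± 0.18). Lower were Sulf1, a heparan sulfatase (-2.04 ± 0.12), and Col8a2 (-1.34 ± 0.20). Adjusted p-values (limma) of these 8 lay between 0.000574 and 0.0188. Several of these genes, such as Htr2c, Atp2b3 and Trpm3, are also expressed by neurons. Among the brightest members not called, Slc29a4, a monoamine transporter, stood at 0.01 ± 0.13 and Slc5a3, an inositol transporter, at 0.27 ± 0.14. Between cortex and cerebellum 0 of the 17 were called, where 0.325% of all probe sets were (limma, with 1011 at an unadjusted p under 0.05). Below 0 lay 13 of 17, where 51.9% of all probe sets did, with a median of -0.35 against -0.01 over all. Without the paternal-7 cerebellum array, 9 of 17 lay below 0 and the median was -0.11.

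For the duplications 0 of the 17 were called, where 0.00756% of all probe sets were (limma, with 1147 at an unadjusted p under 0.05). Of the 15 tested plexus genes other than Ttr and Kcnj13, 14 lay below 0, where 48.1% of all tested probe sets did. Their median was -0.20 against 0.01 overall. The count was 12 without either array of the 15.5 dpc or of the 13.5 dpc pair, and 14 after centring and after quantile normalization. By context, 11 of 15 were lower in the paternal-7 array of cortex, 5 in that of cerebellum, 12 at 15.5 dpc and 14 at 13.5 dpc. Their medians were -0.17, 0.10, -0.22 and -0.39. In the same order, 49.5%, 50.8%, 47.3% and 46.7% of all tested probe sets were lower, with medians of 0.003, -0.007, 0.029 and 0.031. Of the 15, 3 were lower in 4 of 4 contexts, as were 9.08% of all tested probe sets. These were Slc13a4 (-0.62 ± 0.18), Abcc4 (-1.08 ± 0.26) and Sulf1 (-0.08 ± 0.12). The pair differences of Sulf1 were small, at -0.13 to -0.01. Ecrg4, which encodes a peptide secreted by plexus epithelium and is named after its values were seen, stood at -0.39 ± 0.24, with 2964 against 1368 units at 15.5 dpc and 1560 against 2080 in cerebellum. Lower paternal-7 values were also found in other lists. For the duplications, 11 of 14 tested roof plate genes lay below 0 (median -0.07), 4 of 5 neuronal markers (-0.31) and 4 of 5 cerebellum markers (-0.39), but 7 of 14 markers of ependyma and motile cilia (0.00). The summed signals of the roof plate genes, the meningeal markers and the cerebellum markers, which all hold Zic1, were lower in the paternal-7 array in 4 of 4 contexts. Those of the pigment cell markers, which are dim, were higher there in 4 of 4. Whether the plexus genes differ from these lists was not tested. The plexus genes came from the same RNA as Ttr and Kcnj13 and are no independent repeat of them.

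Genes of the roof plate, the cortical hem and the plexus programme, from which the epithelium forms, were measured for 14 of 33 names, all tested. Between 15.5 and 13.5 dpc 0 of 14 were called, where 6.59% of all probe sets were, with a median of -0.03. Between neonatal and embryonic contexts 1 of 14 was called higher, where 14.3% of all probe sets were, namely Rfx4 (0.81 ± 0.16, limma adjusted p = 0.0117), and 4 were called lower, against 16.4%. These were the Wnt agonists Rspo2 (-1.93 ± 0.32) and Rspo3 (-1.64 ± 0.22) and the homeobox genes Lmx1b (-0.68 ± 0.13) and Emx2 (-0.61 ± 0.13). The brightest, Zic1, read 2915 ± 1148 units at 13.5 dpc and 4959 ± 1683 at 15.5 dpc (0.77 ± 0.23, adjusted p = 0.104), and 4965 ± 1865 in cortex and 4616 ± 253 in cerebellum.

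Of 33 genes that handle retinol and thyroid hormone, the cargo of transthyretin, 7 were on the array and 5 were tested, Ttr being counted in each number. None of the 5 was called in 15.5 minus 13.5 dpc or for the duplications, where 6.59% and 0.00756% of all probe sets were. Between neonatal and embryonic contexts 2 of 5 were called lower, against 16.4% of all probe sets. These were Slc16a10, a carrier of aromatic amino acids and thyroid hormone (-1.38 ± 0.15, limma adjusted p = 0.00164), and Rdh10, a retinol dehydrogenase (-0.97 ± 0.19, adjusted p = 0.0118). Cyp26b1, which degrades retinoic acid, stood at -0.39 ± 0.14 and the thyroid hormone receptor gene Thra at 0.47 ± 0.20 without passing the test. Between 15.5 and 13.5 dpc 3 of the 5 lay below 0, with a median of -0.06 against -0.02 overall.

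Within the family of inward rectifiers, 7 of 15 genes were on the array and 5 were tested. Kcnj13 was the only 1 of the 5 called between 15.5 and 13.5 dpc, where 3.52% of all probe sets were called higher and 3.07% lower. The others stood at 0.89 ± 0.30 for Kcnj16, 0.64 ± 0.22 for Kcnj3, -0.23 ± 0.30 for Kcnj11 and -0.34 ± 0.38 for Kcnj5. Differences between genes were not tested. Kcnj16 (1.03 ± 0.21, limma adjusted p = 0.0132) and Kcnj3 (0.93 ± 0.15, adjusted p = 0.00628) were called higher in neonatal tissue, as were 14.3% of all probe sets. Kcnj11, a subunit of ATP-sensitive channels, read 3731 to 7436 units over the 8 arrays. Kcnj9 and Kcnj15 were too dim to test.

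The gene that surrounds Kcnj13 had another pattern. The brighter of the 2 probe sets of Gigyf2, which encodes a regulator of translation, read 428 ± 119 units for cortex, 362 ± 41.8 for cerebellum, 819 ± 208 for 15.5 dpc and 694 ± 201 for 13.5 dpc. It was lower in neonatal tissue (-0.83 ± 0.21, limma adjusted p = 0.0270) and stood at 0.23 ± 0.30 between 15.5 and 13.5 dpc. Eif4e2, a neighbour on the same chromosome, read 1638 to 2505 units.

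Markers of other cells that hold Ttr or Kcnj13, or that lie beside the plexus, were summed without both genes. Of liver and visceral yolk sac, a site of Ttr expression, only Apob was measured. It read 75.0 to 269.97 units and exceeded the array median on 2 of 8 arrays. Of pigment epithelium 3 genes were measured, at 271 to 910 units in sum. Best1, which marks that epithelium, was below the array median on all 8 arrays. Mlana and Trpm1, which make up the rest, exceeded it on 2 and 4 of 8 arrays. The sums of these dim signals were 324 to 722 units at 15.5 dpc and 616 to 910 at 13.5 dpc. The amount of pigment epithelium in the samples was not tested. Meninges and fibroblasts had 3 measured genes, mainly Zic1, at 2630 to 6500 units, with Col1a2 at 159 units or less. Endothelium and pericytes had 2, at 1010 to 1110 units at 15.5 dpc and 1610 to 1630 at 13.5 dpc, and red blood cells 0.

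Markers of ependyma and motile cilia, which border the ventricles as the plexus does, had 19 measured genes. These summed to 4840 to 5580 units at 13.5 dpc, 9470 to 10900 at 15.5 dpc, 7490 to 7630 in cortex and 8920 to 10700 in cerebellum. Of 14 tested, 4 were called higher at 15.5 than at 13.5 dpc, where 3.52% of all probe sets were, and 0 lower, against 3.07%; 2 of the 14 lay below 0. The called genes were Cfap52 (1.90 ± 0.25, limma adjusted p = 0.0170), Dynlrb2 (1.39 ± 0.27, 0.0339), Rsph4a (1.23 ± 0.25, 0.0402) and Ak7 (1.15 ± 0.21, 0.0301). The median of the 14 was 1.11 against -0.02 overall. Spag6, a gene of motile cilia, stood at 54 units or less on every array. Of 5 tested neuronal markers, 4 were also called higher at 15.5 than at 13.5 dpc, against the same 3.52% (median 1.12), and the sums of the 7 measured were 16000 to 23700 units at 13.5 dpc and 36700 to 42600 at 15.5 dpc. The 20 measured plexus genes other than Ttr and Kcnj13 summed to 24700 to 29400 units at 13.5 dpc, 29300 to 33600 at 15.5 dpc, 25100 to 26900 in cortex and 30300 to 32800 in cerebellum, so that the embryonic ages met at the edge of their ranges. The part of the ciliary and neuronal markers in the result for Ttr and Kcnj13 was not tested.

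**Figure D5:**
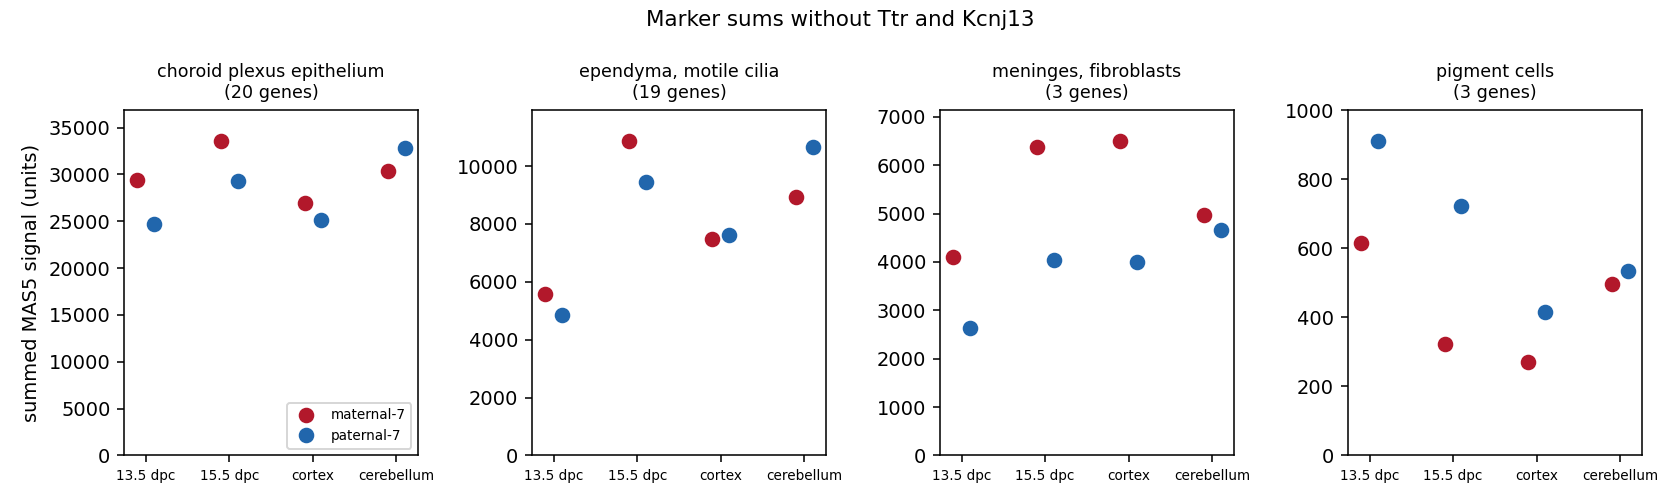
Summed MAS5 signal of the measured markers of plexus epithelium, of ependyma and motile cilia, of meninges and fibroblasts and of pigment cells on each array, without Ttr and Kcnj13, on linear axes from 0. Sums are led by their brightest genes. The ependyma sum is lowest at 13.5 dpc (4840 to 5580 units). The sum of pigment cell markers is made of dim signals, and the amount of pigment epithelium was not tested.

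Progenitor markers (3 measured, with sums of 2560 to 3350 units) and the single measured gene of hypothalamus, Pmch (196 to 222 units in cerebellum, 1020 to 1470 in cortex), completed the lists.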

How the data were processed

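Total RNA, 9 µg per array, was labelled as cRNA, per the labels' protocols. The authors deposited linear MAS5 signal intensities, per the submitters' processing notes, with no version of MAS5 given. They hold no detection calls. The 64 control probe sets were set aside. Of 22511 others, 14661 had 1 gene symbol, 245 several and 7605 none, with symbols updated through RefSeq (GRCm38.p6). Signals were used as log2(signal + 58.5), the pseudocount being the median of the arrays' 20th percentiles. Probe sets above the array median on at least 2 of 8 arrays were tested (13221). The fits used R 4.3.3 and limma 3.58.1 with terms for context and duplication, leaving 3 residual degrees of freedom (2 for the duplication effect by age). They were tested on simulated data, with differences added to few probe sets. For 15.5 minus 13.5 dpc, 10% of log2 differences of 1 and 69% of those of 2 were called. For the duplications 48% and 93% were. Benjamini-Hochberg adjustment ran across every tested probe set (threshold 0.05), and intervals are unadjusted. The brightest probe set stood for each listed gene. Named were the members, called list genes, the 8 brightest plexus and roof plate genes, channels, neighbours and the 5 most alike. The members and lists were chosen with earlier results of these data known. Alternatives covered scaling, pseudocount, filter, variance trend, model and left-out arrays.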

Additional observations from a re-analysis of the deposited data

Results flagged for a closer look

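The duplication difference of Ttr (paternal-7 minus maternal-7) ran in opposite directions in the neonatal regions, with -0.25 log2 units in cortex and 0.16 in cerebellum. Each value rests on 1 pair of arrays, and the difference between the regions was not tested. Kcnj13 was lower in the paternal-7 array in both regions.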

How the results depend on the processing

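Both genes kept the sign of their duplication difference, uncalled, in all 19 alternatives (Ttr -0.35 to -0.09, Kcnj13 -0.45 to -0.34). These are not 19 separate checks. Leaving out either array of a pair, or the pair, gives the same estimate, and the filters and the trend leave it unchanged. Quantile normalization, which sets the top ranks of all arrays equal, gave Ttr 0 for cortex minus cerebellum, 0.32 for cortex and for cerebellum minus 15.5 dpc, 1.0 (called) for both minus 13.5 dpc, and 0.66 (called) for neonatal minus embryonic. Centring gave Kcnj13 0.13 for neonatal minus embryonic and 0.054 for the duplication effect by age, which was 0.011 when the cortex pair was left out and 0.099 when that of 13.5 dpc was. For Kcnj13, 15.5 minus 13.5 dpc kept its size of 1.03 but lost its call without a filter, a duplication term, the cortex pair or the cerebellum pair. Cerebellum minus 13.5 dpc lost its call at 0.68 (floor of 1), 0.67 (pseudocount 16) and 0.64 (no filter, no duplication term, no cortex pair or no 15.5 dpc pair). The strict filter and the intensity trend called Ttr at 0.86 for 15.5 minus 13.5 dpc and Kcnj13 at -0.73 for cortex minus 15.5 dpc, and the trend also Ttr at 0.54 for cerebellum minus 13.5 dpc. Called plexus members for 15.5 minus 13.5 dpc, 5 as reported, were 3 with a floor of 1. They were 8 with the strict filter or the trend, and 0 without a filter, the cortex pair or the cerebellum pair. Calls over all probe sets, 871 as reported, were 459 with a floor of 1 and 207 of 22511 without a filter. They were 104 without the cortex pair and 123 without the cerebellum pair. The strict filter gave 1145 of 7994 and the trend 1411. Leaving out 1 array at a time gave Ttr -0.40 to 0.12 for cortex minus cerebellum and -0.089 to 0.18 for neonatal minus embryonic. It gave Kcnj13 0.89 to 1.16 for 15.5 minus 13.5 dpc, 0.51 to 0.78 for cerebellum minus 13.5 dpc, -0.11 to 0.023 for neonatal minus embryonic and -0.24 to 0.099 for the duplication effect by age. Called plexus members then numbered 0 to 2 for 15.5 minus 13.5 dpc and 5 to 8 for neonatal minus embryonic. Fits without an array had 1 residual degree of freedom fewer. For 15.5 minus 13.5 dpc and for neonatal minus embryonic, calls over all probe sets fell in each of these fits. Other causes were not tested. Dim signals lie near background, and 8 arrays limit what could be called.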
